A study of Mus musculus with 14 samples.

Results

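The m6A peak list of METTL14 R255K cells held 9437 peaks, and each was described by where it lay on the exons of the gene table deposited with the R255K RNA libraries. The series held 27130 peaks in all, the other 17693 in the list of wild-type (WT) cells. All peaks of the R255K list were kept, and no measured value chose them. Both lines were E14Tg2a cells, a mouse embryonic stem cell line grown in serum with leukaemia inhibitory factor. The R255K line was a single-colony knock-in made with CRISPR-Cas9, in which an arginine of METTL14 was replaced by lysine, so line and genotype cannot be told apart. For each genotype the series had 2 libraries of RNA pulled down with an m6A antibody, 2 input libraries, and 1 RNA library at each of 0, 4 and 8 h of actinomycin D, an inhibitor of transcription, which made 14 samples. RNA for the pulldown had been broken into pieces of about 100 nucleotides. A peak is a stretch of genome where pulled-down reads exceeded input reads, the fold enrichment is the ratio of pulled-down signal at the summit to the local background, and −log10 q is the peak caller's score for it. Because each genotype had 1 peak list, no difference between the lists has a replicate check, and the 95% intervals given here cover counting error only.

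m6A is a methyl group on the nitrogen-6 position of adenosine and is the most abundant internal modification of messenger RNA. It is written in the nucleus by a complex built around the METTL3 and METTL14 pair with WTAP, VIRMA, ZC3H13, HAKAI (Cbll1) and RBM15 as partners, mostly at adenosines in the sequence context GGAC. YTH-domain proteins bind it, and one well-known outcome is faster decay of the transcript. In mammalian messenger RNA, m6A is known to lie in long internal exons and near stop codons, in the early part of the last exon.

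The R255K RNA library at 0 h held 15642076 counts on genes, the 4 h library 18598491 and the 8 h library 18813640, and the WT library at 0 h held 17428469. A gene was called expressed at 1 or more FPKM (counts per kilobase of exon, scaled to the library total) in R255K cells at 0 h, which 11844 genes reached. Mettl14 itself had 299 counts (2.58 FPKM) in R255K cells and 681 counts (5.27 FPKM) in WT cells at 0 h, but the codon change cannot be read from gene counts. The stem cell markers were high in R255K cells, among them Pou5f1 at 385 FPKM, Zfp42 at 353, Sox2 at 182 and Nanog at 174. Of 10 markers of other cell types, none exceeded the 4.01 FPKM of Thy1. In bulk RNA, fewer cells of a type and less RNA per cell cannot be told apart.

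The sequences under the strongest R255K peaks are shown first, because most of them hold the GGAC context close to the summit, the point of highest enrichment within a peak. Of the 10 exonic peaks with the highest fold enrichment, 7 had a GGAC on the gene's strand within 50 bases of the summit. The 30 bases around the GGAC nearest to the summit are given for these 7 genes, 5′ to 3′ on the gene's strand, with the GGAC in capitals.
Gm24270: gtcgtccccgtcgGGACcggggtccggtgc
Tenm4: ggcctgcgggcctGGACagatggggaaaag
Celsr1: cggtcaaaggccaGGACttctcaccaagct
Tmem229b: caacacatcctggGGACtaggagctgggtg
Tagap1: gacctcagtgaagGGACacctggtggacac
Emilin3: tcagtgcccgggtGGACagccttgagagga
Cnnm3: tctgcacggaagaGGACagcgcaccgggcg

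On the mm10 (GRCm38) build these were chr9:56223750-56223779 on the minus strand in a noncoding exon of Gm24270, chr7:96906427-96906456 on the plus strand in the coding sequence of Tenm4, and chr15:85899329-85899358 on the minus strand in the UTR of Celsr1. The Tmem229b site was chr12:78964405-78964434, minus strand, in the UTR, and the Tagap1 site was chr17:6955982-6956011, minus strand, in the coding sequence. Emilin3 had its site at chr2:160908648-160908677, minus strand, and Cnnm3 at chr1:36512026-36512055, plus strand, both in the coding sequence. The peak on Gm24270 had a fold enrichment of 112, the highest in the list, against 63.8 for the WT peak at the same place. The exon of that gene is 57 bases long under a peak of 563 bp. Most of the peak therefore lay outside that exon, and the transcript it came from is uncertain. Tenm4, which encodes a teneurin, a cell-surface adhesion protein of the nervous system, had 63.2-fold enrichment (27.9 in WT) in its last exon, which is 5261 bases long. Celsr1, a cadherin of planar cell polarity, had 56.2-fold (27.5 in WT), and Tmem229b, a transmembrane protein gene, 48.2-fold (32.2 in WT). Tagap1 reached 47.1-fold (37.1 in WT), Emilin3, a gene for an extracellular matrix glycoprotein, 45.1-fold (24.8 in WT), and Cnnm3, of the magnesium transporter family, 39.2-fold (31.0 in WT). Among the others, Lars2, the mitochondrial leucyl-tRNA synthetase gene, at 78.9-fold (27.9 in WT), and AA414768, at 41.7-fold (34.7 in WT), had no GGAC within 50 bases of the summit. All 10 lay over a WT peak, and in each the R255K fold was the higher of the pair. The 10 were chosen on R255K fold, so that direction carries no weight.

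Nearly all R255K peaks lay on exons. An exon was touched by 8818 of the 9437 peaks (93.4%, Wilson interval 92.9 to 93.9), 219 (2.32%) lay inside a gene on no exon, and 400 (4.24%) lay outside all genes. In the WT list the exonic share was 78.4%, which was 15.0 percentage points lower (Newcombe interval of the difference 14.3 to 15.8). Of the 9437 WT peaks with the best scores, 90.5% touched an exon, 2.90 points below R255K. This shortened WT list was cut by score, and the R255K list was not cut. WT peaks inside introns (median −log10 q 8.51) and outside genes (8.34) scored below those on exons (24.8). The cut therefore favours exonic WT peaks, and here and below it sets score-selected WT peaks against all R255K peaks. With the same limit on both lists, the difference was 11.9 points at −log10 q of at least 5 and 16.0 at 4-fold or more. All these alternatives were chosen after seeing the data. R255K peaks on exons had a median width of 345 bp and a median fold enrichment of 5.50. Those on no exon of their gene were 270 bp wide with 6.85-fold enrichment, and those outside genes 281 bp wide with 7.28-fold. The exonic peaks had the higher scores despite the lower fold, with a median −log10 q of 17.8 against 8.21 inside introns and 10.4 outside genes. Of the exonic peaks, 622 touched exons of 2 or more genes, so their gene is uncertain, and 293 reached 2 or more exons of 1 gene.

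Wider peaks were also stronger. The 3716 peaks of 200 to 300 bp had a median fold enrichment of 4.65, the 3433 of 300 to 500 bp 6.02, the 1885 of 500 to 1000 bp 7.53 and the 403 of 1000 bp or more 9.32. Wide peaks were scarcer than in WT cells, with 4.26% of R255K peaks over 1000 bp against 7.97% of WT peaks (difference −3.72 points, −4.28 to −3.14). In the shortened WT list the share was 14.4%, but scores rose with width, so a cut by score favours wide peaks. The median −log10 q in R255K was 9.85 at 200 to 300 bp and 84.9 at 1000 bp or more. With peaks of at least 4-fold in both lists the difference was −4.06 points. Above 20-fold the shares were alike, at 2.36% of R255K peaks (223 peaks) against 2.35% in WT (415 peaks). Above 10-fold the R255K share was the lower, at 16.9% against 20.1% in WT. The median fold enrichment of all peaks was 5.64 in R255K and 6.23 in WT. Among the 5 widest exonic peaks were 3 on protein-coding genes. Ahdc1, a gene for an AT-hook DNA-binding protein, carried a peak of 3355 bp at 11.1-fold, Plec, the gene of the cytoskeletal linker plectin, one of 3153 bp at 15.1-fold, and Fem1a, a substrate adaptor of a ubiquitin ligase, one of 2956 bp at 16.4-fold. The other two were the 5837-bp peak over CT010467.1 at chr17:39843007-39848843, with only 2.68-fold enrichment, and a 3574-bp peak over the mitochondrial ribosomal RNA gene mt-Rnr1 at 4.73-fold. Measured by score instead of fold, Gm24270 and Tenm4 again led, followed by Mief2, a gene of mitochondrial dynamics, at 28.8-fold and −log10 q 306.

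Most methylated genes in R255K cells carried a single peak. Of 6515 genes with a peak on an exon, 4493 (69.0%) had exactly 1, 1384 (21.2%) had 2, and 638 (9.79%) had 3 or more, of which 74 had at least 5. WT cells had 9240 such genes, with 61.8% at exactly 1 peak (difference 7.20 points, 5.70 to 8.69), 1292 genes at 3 or more (difference in share −4.19 points, −5.19 to −3.17) and 182 genes at 5 or more. These differences changed direction when the WT list was cut by score. Its 9437 best-scoring peaks lay on 6601 genes, with 72.1% at exactly 1 peak (difference −3.16 points), 7.86% at 3 or more (difference 1.93 points) and 45 genes at 5 or more. They kept their direction at 4-fold or more in both lists, at 8.19 and −4.08 points. The number of R255K genes with 5 or more peaks fell to 22 when only peaks of at least 4-fold were counted. Of the 6515 genes, 5931 (91.0%) also had a WT peak. Among those, 3505 had the same number in both lists, 1821 had fewer in R255K and 605 had more. More peaks were not always more methylated sequence, since 394 of the 605 (65.1%) had fewer exonic bases under peaks in R255K than in WT.

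Genes with more peaks were longer. The median exonic length was 4066 bases for genes with 1 peak, 4699.5 with 2, 6420.5 with 3 or 4 and 8484.5 with 5 or more, against 3043 for expressed genes with no peak. The median number of peaks per kilobase was 0.246, 0.426, 0.504 and 0.625 over the same classes, and the median share of exonic bases under peaks 8.18%, 15.2%, 19.8% and 25.4%. Both follow in large part from classes set by the number of peaks and are given as a description. The median level of the genes was 4.99 FPKM with 1 peak, 7.54 with 2, 8.65 with 3 or 4 and 8.21 with 5 or more. Neighbouring summits on the same gene (2621 pairs) stood a median of 1174 exonic bases apart, 42.0% of the pairs shared an exon, and 9.27% were within 500 bases of each other.

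Spen had more peaks than any other gene, with 9 in R255K and 8 in WT. It encodes a very large RNA-binding repressor of transcription known for silencing by Xist RNA. Of its 9 summits, 5 lay in its 8020-base exon 13, where the peaks had 4.05- to 7.19-fold enrichment, and the peaks on exons 1, 2, 3 and 17 were stronger, at 10.8-, 15.4-, 11.5- and 12.1-fold. Peaks covered 39.5% of its exonic bases in R255K and 65.5% in WT. Kmt2d, a histone H3K4 methyltransferase gene, had 8 peaks (10 in WT) spread over 7 of its 56 exons, each of those exons over 1000 bases long. The 30 bases around the GGAC nearest to the summit are shown for the 7 of its 8 summits that had one within 50 bases, with the GGAC in capitals, in order from the 5′ end, because they show how alike and how unlike the repeated sites of 1 transcript were.
Kmt2d exon 11: ccccaccacccgaGGACtctcctgcctcac
Kmt2d exon 12: tctagatgggactGGACagatgtctggcag
Kmt2d exon 32: gcaggacccctttGGACtggcccctgccta
Kmt2d exon 35: tgatgggcacccgGGACactcgaggaggag
Kmt2d exon 40, first summit: agaggtcactgagGGACcttcaacacatca
Kmt2d exon 40, second summit: ggctaggaccttgGGACccctcagacaacc
Kmt2d exon 56: gcagccagagccaGGACccagggctagggc

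These sites lay on the minus strand of mm10 at chr15:98863502-98863531, chr15:98862080-98862109, chr15:98853392-98853421, chr15:98849958-98849987, chr15:98844979-98845008, chr15:98843978-98844007 and chr15:98834391-98834420. The first 6 were in the coding sequence and the site in exon 56, the last exon, in the UTR. In the same order the peaks had 12.95-, 2.88-, 5.72-, 9.78-, 7.26-, 10.9- and 3.45-fold enrichment. The eighth peak, on exon 49 at 5.41-fold, had no GGAC within 50 bases of its summit.

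Genes for large regulators and cytoskeletal linkers followed Spen and Kmt2d. Zfhx3, a zinc finger homeodomain factor gene, had 8 peaks (11 in WT), all between 26.0% and 78.1% of the way along its exons. The strongest of them, at 24.8-fold, held this GGAC in the coding sequence at chr8:108793717-108793746 on the plus strand of mm10, shown for comparison with its Kmt2d counterparts.
Zfhx3: ggagggctgcaaaGGACtctttccaaatga

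The related Zfhx2 had 7 peaks (6 in WT), the strongest at 17.8-fold in exon 9. Plec had 7 in R255K and 3 in WT but with fewer bases covered (41.3% against 54.7%), and 5 of its 7 summits shared the 7412-base last exon. Macf1, a linker of microtubules and actin, had 7 against 13 in WT, which covered 6.38% and 18.7% of its 31402 exonic bases. The genes with 6 peaks were 16 in number. Rara, the retinoic acid receptor alpha gene, had 6 (5 in WT), covering 44.6% of its exonic bases against 45.3%. Itpkc, an inositol trisphosphate kinase gene, had 6 against 3 and was covered more in R255K than in WT (42.9% against 33.9%), with 29.8-fold enrichment at its strongest peak in the last exon. Maml1, a coactivator of Notch signalling, had 6 (5 in WT), Sall3, of the spalt zinc finger family, 6 (5), Zcchc14 6 (7) and Luzp1 6 (4), and in these 4 genes less of the exonic sequence was covered in R255K (33.6% to 40.7%, against 37.5% to 57.3%).

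Along the gene, R255K summits were spread broadly, with an excess in the first 10%. Of 8430 summits that lay on an exon, the first 10% of exonic bases held 1276 (15.1%, 14.4 to 15.9), each 10% step from there to 90% held between 9.40% and 10.7%, and the last 10% held 476 (5.65%). In WT the first 10% held 9.16% and the last 10% 7.95%, so the R255K share was 5.98 points higher at the 5′ end (5.08 to 6.89) and 2.30 points lower at the 3′ end (−2.97 to −1.62). The median place was 45.9% of the exonic length in R255K and 52.4% in WT. The summits within 200 bases of the 5′ end made up 8.99% in R255K and 3.90% in WT. The absolute counts there were 758 and 523, so it was a region in which the shorter list held more summits than the longer one. The 5′ peaks were weaker than the rest, with a median fold of 4.37 in the first 10% against 6.09 between 50% and 60%. Their sequence was also richer in G and C, at 67.3% over the 101 bases around the summit in the first 10%, against 52.5% to 57.7% in the other 10% steps and 48.5% over exons of expressed genes. WT summits in the first 10% had 63.5% G and C. GC content in the libraries differs with amplification and sequencing, and its part in the 5′ excess was not tested.

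**Figure D1:**
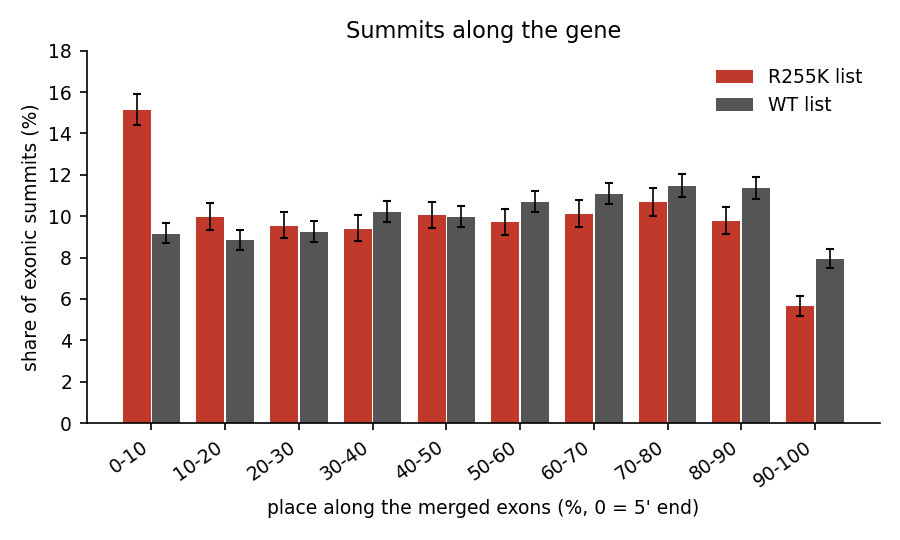
Percent of exonic summits (vertical axis) in each 10% of the exonic length of the gene from 5′ to 3′ (horizontal axis), for 8430 R255K and 13420 WT summits, with Wilson 95% intervals as error bars. The R255K bar is highest in the first 10%, at 15.1% against 9.16% in WT, and lowest in the last 10%, at 5.65%.

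By exon, the last exon held 54.7% of R255K summits (4610 of 8430), although last exons made up 37.1% of the exonic bases of expressed genes. In this count the only exon of a single-exon gene was taken as its last. Here and for exon lengths below, shares of summits cover all genes, while shares of bases cover expressed genes. Of the 8430 summits, 7299 lay on expressed genes. In WT the share was 59.5% (difference −4.79 points, −6.14 to −3.44). The first exon of genes with several exons held 15.3% of R255K summits on 8.11% of the bases, against 9.17% in WT (difference 6.14 points, 5.23 to 7.05). Internal exons held 30.01% on 54.8% of the bases. With the WT list cut to its 9437 best-scoring peaks and the R255K list uncut, the difference in the first 10% of the gene was 8.77 points. In the last exon it was −8.08 points. With only peaks of at least 4-fold in both lists, also chosen after seeing the data, they were 4.54 and −2.57 points.

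Within last exons of genes with several exons the R255K summits crowded into the early part. Only 61.7 summits per megabase of expressed exon (47.6 to 78.6, exact Poisson interval) fell in the first 100 bases. The density rose to 411 between 100 and 200 bases and peaked at 586 (552 to 622) between 200 and 400 bases. It was 281 between 400 and 800 bases, 138 up to 1600 bases and 66.0 beyond. The WT list had the same order, with 82.5, 878, 1043, 394, 198 and 118. In absolute density the lists stood furthest apart between 100 and 400 bases. Peaks are stretches of genome of at least 200 bp, so one at the start of an exon can reach into the intron and may be harder to call. The part of that in the low density of the first 100 bases was not tested.

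Long exons carried most of the summits. Exons over 1000 bases were 9.57% of the exons of expressed genes and 55.6% of their bases, and 66.9% of R255K summits lay in them (69.5% in WT, difference −2.61 points, −3.88 to −1.34). That last difference turned to 0.988 points with peaks of at least 4-fold in both lists and was −6.40 points with the shortened WT list. The exon under an R255K summit had a median length of 1598 bases, against 152 for all exons of expressed genes. Exons under 200 bases held 18.2% of the bases and 2.94% of the summits. Among internal exons the density was 9.43 summits per megabase in exons under 100 bases, 13.4 from there to 200 bases, 50.6 between 200 and 400, 154 between 400 and 1000 and 150 between 1000 and 2000. It was lower again in longer internal exons, at 81.4 between 2000 and 4000 and 85.5 from 4000 bases on. First exons did not follow this order, since those between 200 and 400 bases had 380 summits per megabase, above the 285 of first exons between 1000 and 2000 bases. In WT these values were 205 and 350, the opposite order. Of 4952 internal exons over 1000 bases in expressed genes, 880 (17.8%) held an R255K summit and 1221 (24.7%) a WT summit. Few summits in such exons lay near the ends, with 2.23% within 100 bases of an exon end, where 9.16% of the bases were. A peak there can reach past the exon and may be harder to call, and the part of that was not tested. A peak has to be at least 200 bp wide in this list, so short exons are also harder to score as peaks, and the part of that in the order by length was not tested. Exons were merged over all transcripts of a gene, so a merged exon can be longer than the exon of any 1 transcript. Of the introns between merged exons, 82.5% had GT and AG at their ends. The part of merging in the lengths, densities and shares of long exons was not tested.

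**Figure D2:**
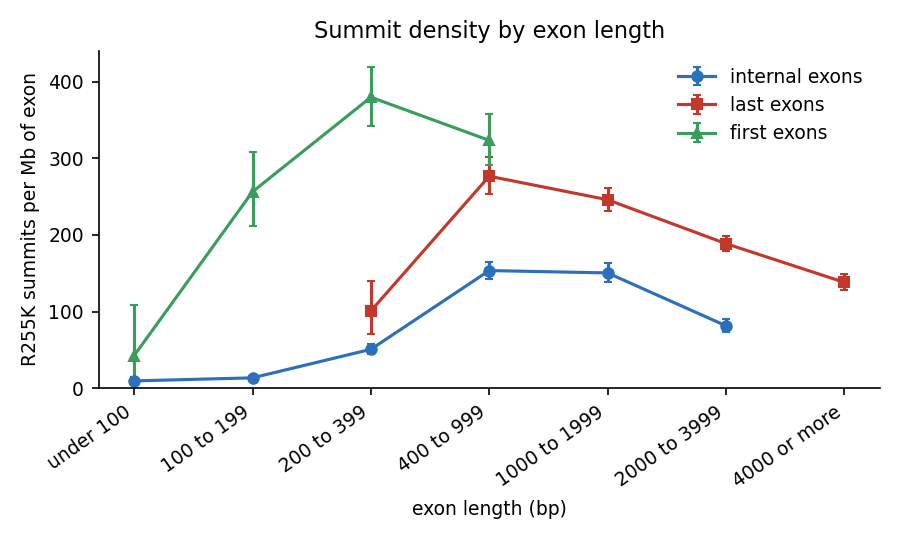
R255K summits per megabase of exon (vertical axis) by exon length (horizontal axis) for first, internal and last exons of expressed genes with several exons, with exact Poisson 95% intervals; a point is drawn only where a class held at least 500 exons. Internal exons go from 9.43 under 100 bases to 154 between 400 and 1000 bases, while first exons have 380 already between 200 and 400 bases.

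The share of expressed genes with an R255K peak was 43.4% (5144 of 11844, 42.5 to 44.3), against 56.6% with a WT peak, and both are the background for every group of genes named below. It rose with the level of the gene in R255K cells, from 31.6% at 1 to 2 FPKM to 47.4% at 10 to 20 FPKM and 50.9% (47.0 to 54.7) at 100 FPKM or more. WT peaks did not have this order over the same genes, with 50.3% at 1 to 2 FPKM, 62.1% at 10 to 20 and 42.6% (38.8 to 46.5) at 100 or more. The highest class was thus the exception in which more genes had an R255K peak than a WT peak, by 8.24 points. That difference was 22.6 points with only the WT list cut by score, and 4.82 points at 4-fold or more in both lists. Of the 643 genes in this class, 224 had a peak in both lists, 103 in R255K alone and 50 in WT alone. At 1 to 2 FPKM (1835 genes) the same counts were 559, 20 and 364. Over all 11844 expressed genes they were 4725, 419 and 1977, the background for such counts below. The share rose with exonic length as well, from 11.9% under 1000 bases to 60.9% at 8000 bases or more (12.5% and 77.3% in WT). Peak detection depends on read number, and the depth of the pulldown and input libraries is unknown here, so the part of depth in these shares was not tested.

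**Figure D3:**
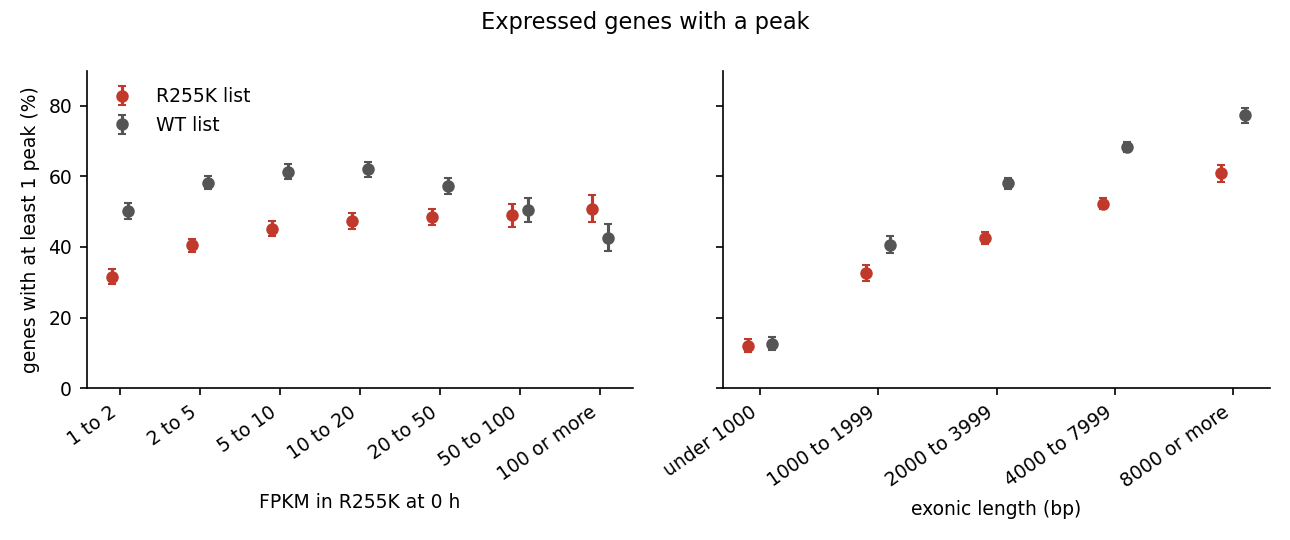
Percent of expressed genes with at least 1 peak (vertical axes) by level in R255K cells at 0 h in FPKM and by exonic length in bases (horizontal axes), for the R255K and WT lists, with Wilson 95% intervals. R255K lies below WT at low levels (31.6% against 50.3% at 1 to 2 FPKM) and above it at 100 FPKM or more (50.9% against 42.6%).

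The peaks on highly expressed genes were weak. The median fold enrichment of R255K exonic peaks fell from 7.12 on genes under 1 FPKM to 5.97 at 5 to 10 FPKM and 2.54 (2.43 to 2.64) at 100 FPKM or more. WT exonic peaks had 7.21, 6.52 and 2.69 in these classes. On those highest genes, the 91 R255K summits on genes without a WT peak had 2.37-fold enrichment, a width of 251 bp and a median place of 17.3% along the gene. The 321 summits on genes with a WT peak had 2.58-fold enrichment, a width of 372 bp and a median place of 40.4%. Of the 6515 peak genes, 1371 (21.0%) were under 1 FPKM and 301 had no count in the R255K library at 0 h. A peak was credited to every gene whose exons it touched, and only 818 of the 1371 and 25 of the 301 had a peak that touched no other gene's exons.

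Of the 100 most highly expressed genes, 57 had an R255K peak and 44 a WT peak. Several of them carried more than 1 peak. Eef2, elongation factor 2, had 5 R255K peaks (3 in WT) at 1006 FPKM, and Eef1a1, elongation factor 1 alpha, 2 in each list at 1981 FPKM. Hsp90ab1, a cytosolic chaperone gene, had 5 (3 in WT) at 1514 FPKM, with fold enrichments no higher than 3.93, and Actb, beta-actin, had 4 (3 in WT) at 663 FPKM. The 12 most highly expressed genes without an R255K peak were led by Rplp1, a ribosomal stalk protein gene, at 1608 FPKM, Rpl19 at 891 FPKM and Sod1, superoxide dismutase 1, at 835 FPKM. Most of them are short, with 1875 exonic bases or fewer except Trim28, a corepressor of retroviral elements, which had 4158 exonic bases, 37139 counts (571 FPKM) and no peak in either list. Only Tuba1b, an alpha-tubulin gene at 718 FPKM, had a WT peak among these 12. Dppa5a, an RNA-binding protein gene of pluripotent cells, had none in either list at 593 FPKM. Ribosomal protein genes have many near-identical pseudogene copies and only uniquely placed reads had been kept, so their counts and peaks are uncertain.

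Long transcripts could also lack any peak. Among 1983 genes with at least 10 FPKM and 4000 exonic bases, 793 had none in R255K. Ubr4, a ubiquitin ligase gene of 17997 exonic bases with 7799 counts, and Sptan1, the gene of a spectrin chain with 13362 bases and 7828 counts, had none in either list. Mdn1, a ribosome assembly factor gene of 21836 exonic bases, had 3 WT peaks and no R255K peak. Cnot1, the scaffold of the CCR4-NOT deadenylase, which shortens poly(A) tails, had 2 WT peaks and none in R255K at 9084 counts.

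The transcripts of the methylation machinery were themselves among the marked and the unmarked. Of 8 writer complex genes, all expressed, 6 had an R255K peak and 7 a WT peak. Mettl3, the catalytic subunit, had none in either list at 9.89 FPKM, and Mettl14 had 1 in WT and none in R255K. Zc3h13 had 4 peaks (6 in WT) of 3.12- to 10.3-fold, Wtap 2 (3) with the strongest at 17.6-fold, and Rbm15 2 (2) of 9.76- and 15.4-fold. Virma had 1 where WT had 3. Of 11 reader and eraser genes, 8 had an R255K peak and 7 a WT peak. Among the cytoplasmic readers, Ythdf3 had 3 peaks in both lists, Ythdf2 2 in both and Ythdf1 1 in both, with the 1 Ythdf1 peak region covering 40.5% of its exonic bases. The demethylase genes Fto and Alkbh5 had 1 each, at 2.33- and 1.98-fold.

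Pluripotency factor genes had peaks in 12 of 18 cases (66.7%, 43.7 to 83.7), against 15 of 18 in WT. Pou5f1, which encodes OCT4, had 1 peak in WT and none in R255K at 13537 counts. Nanog and Sox2 had 1 peak in each list, at 2.33-fold and 5.93-fold in R255K, and the Sox2 peak covered 70.9% of its exonic bases. Klf4 had 4 peaks (3 in WT) covering 74.5% of its exonic bases, Tbx3 5 (3), Sall4 4 (5) and Esrrb 3 (5). The number of peaks does not measure the amount of m6A, and the study reports less m6A on Klf4 in R255K cells by pulldown and PCR. The GGAC nearest to a summit in the coding sequence is shown for 3 of these stem cell factors, in 30 bases on the gene's strand of mm10, at chr4:55530479-55530508 (minus), chr2:168756471-168756500 (minus) and chr12:86470313-86470342 (plus).
Klf4: tgcggccggagttGGACccagtatacattc
Sall4: agaagctgggcacGGACtccatcctgtact
Esrrb: acgccaacggtctGGACtcgccgcctatgt

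Signalling genes of the TGF-beta, Nodal and BMP pathways, which feed into the SMAD transcription factors, had R255K peaks in 16 of 22 expressed genes and WT peaks in 20. The ligand gene Nodal had 3 peaks in each list, covering 68.1% of its exonic bases, and Bmp4 had 1 at 10.8-fold. Of the receptors, Acvr2a and Acvr2b had 1 strong peak each, at 28.4- and 20.2-fold, and Tgfbr1 had none in either list. Of the SMAD genes, Smad1, Smad3 and the inhibitory Smad7 had 3 each, and Smad5 had none in R255K and 2 in WT. The target genes Id1 and Id2 had 1 WT peak each and no R255K peak, and Id3 had 1 in each list, at 2.90-fold in R255K.

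The lists of chromatin regulators were short, and the intervals of their shares overlapped widely. In R255K the interval was 60.97% to 100% for H3K4 methyltransferases and 35.5% to 82.3% for Polycomb genes. The lists also differed in median exonic length. It was 14369 bases for H3K4 methyltransferases, 14043 for CHD remodellers, 5297 for Polycomb genes and 7377 for genes of DNA methylation. The part of length in these shares was not tested. All 6 expressed H3K4 methyltransferase genes had a peak in both lists, with 26 R255K peaks on the 6 genes against 39 WT peaks. Kmt2c stood lowest against WT, with 1 against 7. CHD remodellers had peaks in 7 of 8 expressed genes in both lists, and Chd4 had 4 R255K peaks against 1. Polycomb genes had them in 8 of 13 (11 of 13 in WT). Of 7 expressed genes of DNA methylation and its removal, 4 had a peak in both lists, among them Tet1 with 4 and Tet2 with 3, and the methyltransferase genes Dnmt1 and Dnmt3b had none in either list at 61.2 and 102 FPKM. In the CCR4-NOT deadenylase 5 of 11 genes had an R255K peak and 7 a WT peak. Genes named Zfp, mostly zinc finger transcription factors, had a peak in 184 of 248 expressed members (74.2%, 68.4 to 79.2) in R255K and in 231 (93.1%, 89.3 to 95.7) in WT, and no member had one in R255K alone. Of all 11844 expressed genes, 419 had a peak in R255K alone. Ubiquitin-specific proteases had one in 27 of 43 (34 in WT). The study itself singles out a set of genes, which it chose on these samples. Of these 7 genes, 6 had a peak in both lists, and Nedd4, a ubiquitin ligase gene, had no peak on an exon in either. The study shows an m6A profile on Nedd4 and reports less m6A on each of these genes in R255K cells by pulldown and PCR. Why no exonic Nedd4 peak was found here was not tested. A peak in both lists does not mean an equal amount of m6A.

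Short, highly expressed housekeeping genes went the other way. Of 82 cytoplasmic ribosomal protein genes, 30 (36.6%, 27.0 to 47.4) had an R255K peak and 13 (15.9%, 9.51 to 25.3) a WT peak, of which 11 had both, 19 only an R255K peak and 2 only a WT peak. Their R255K peaks were weak, with a median fold of 2.59 over 27 summits. With peaks of at least 4-fold in both lists the difference shrank from 20.7 to 4.88 points. Of 72 respiratory chain genes, 21 (29.2%, 19.9 to 40.5) had an R255K peak and 5 (6.94%) a WT peak, with 17 in R255K only and 1 in WT only, and that difference was 11.1 points at 4-fold or more against 22.2. Over all 11844 expressed genes, 419 had only an R255K peak and 1977 only a WT peak. Proteasome genes had 13 of 36 against 8. Mitochondrial ribosomal protein genes did not share this direction, with 24 of 77 (31.2%) in R255K and 39 (50.6%) in WT. All of these R255K shares were below the 43.4% of expressed genes in general. A GGAC lay within 50 bases of 14 of 27 summits on the cytoplasmic ribosomal protein genes (51.9%, 34.0 to 69.3) and of 7 of 17 on the respiratory chain genes (41.2%, 21.6 to 64.0), against 66.3% of all R255K summits. G and C made up 61.5% and 64.9% of these windows. The 2 lists had a median level of 275 and 86.7 FPKM. All R255K summits on genes of 100 FPKM or more had similar values to the ribosomal ones, at 52.7% with GGAC, 60.4% G and C and 2.54-fold. On genes of 50 to 100 FPKM, 60.3% had GGAC, with 59.7% G and C. The part of GC content and of level in the peaks of these 2 lists was not tested.

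The GGAC context was frequent at R255K summits in general. It was searched for on the gene's strand in the 101 bases around 8429 summits, and 66.3% (65.3 to 67.3) of them held it, against 30.1% of exonic windows of that length in expressed genes and 28.1% of windows of peak genes outside peaks. On the other strand the share at summits was 26.4%. WT summits held GGAC in 61.6% (60.8 to 62.5). The longer GGACT was in 33.4% of R255K windows, 26.5% of WT windows and 9.54% of exonic windows, a ratio to exonic windows of 3.50 in R255K and 2.78 in WT. Among the 5-letter contexts of the DRACH consensus, in which the methylated A is followed by C, the next ratios in R255K were 2.21 for GGACA, 1.98 for GGACC, 1.93 for AGACT and 1.66 for GAACT, and the lowest was 0.589 for TAACA. Any DRACH context was in 92.7% of R255K and 95.6% of WT windows, a lower share in R255K although its GGAC share was higher. Among the 10% steps of the gene this gap was widest in the first, at 75.7% in R255K against 83.8% in WT. In last exons of genes with several exons the DRACH shares were 97.5% and 97.6%, and in internal exons 93.7% and 96.1%. Exonic windows held DRACH in 85.0% of cases. The A of a GGAC lay within 10 bases of 22.2% of R255K summits and within 25 bases of 44.9%, with 11.7 GGAC per kilobase in the 10 bases just 5′ of the summit against 3.67 over exonic windows.

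**Figure D4:**
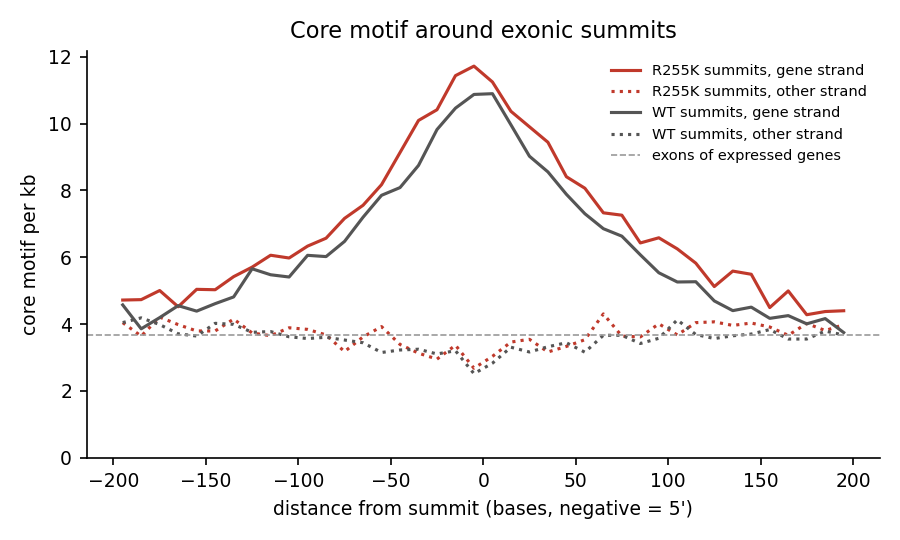
GGAC per kilobase (vertical axis) by distance from the summit in bases (horizontal axis, 200 either side, 10-base bins) on the gene's strand and on the other strand, for R255K and WT summits, with a dashed line at the 3.67 per kilobase of exons of expressed genes. On the gene's strand the R255K line peaks at the summit, at 11.7 per kilobase, and the other strand has no such peak.

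Stronger peaks held GGAC more often. The share was 46.4% in R255K peaks under 2-fold, 54.1% from 2 to 3, 63.1% from 3 to 5, 68.3% from 5 to 10, 78.2% from 10 to 20 and 82.3% from 20-fold on, and GGACT went from 13.5% to 53.0% over the same classes. WT peaks had this rise too, from 41.7% to 81.9% for GGAC and from 11.4% to 37.7% for GGACT. Read the other way, the median R255K fold was 4.85 in windows without GGAC, 5.48 with 1, 6.25 with 2 and 7.06 with 3 or more (5.61, 6.15, 6.99 and 8.20 in WT). The number of summits on a gene made little difference, at 66.4%, 66.5% and 65.8% for genes with 1, 2 and 3 or more. Level did at the top of the range, with 52.7% on genes of 100 FPKM or more and 60.3% at 50 to 100, against 65.8% to 69.1% in all lower classes (56.6%, 61.0% and 58.6% to 64.4% in WT). In place, the 5′ end was lowest, with 58.7% in the first 10% of the gene and 54.1% within 200 bases of the 5′ end, and the last 10% highest, with 73.5% (69.4 to 77.3). The last 10% also differed most from WT, where it held 62.3% (59.4 to 65.2). The first 10% was the only such step in which the R255K share was below that of WT (62.3%, 59.6 to 65.0), with overlapping intervals. These windows were placed by exon positions without a strand in the peak call, so a peak on overlapping genes may be read on the wrong strand.

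Transcripts with more peaks had less left after transcription was blocked. The FPKM in the R255K library at 8 h of actinomycin D was set against that at 0 h for each expressed gene. The median was 104% (103 to 105, order-statistic interval over 6700 genes) for genes without a peak, 81.2% (78.9 to 83.6) over 3373 genes with 1, 60.3% (57.2 to 64.4) over 1189 genes with 2 and 50.1% (44.8 to 55.4) over 582 genes with 3 or more. At 4 h the medians were 103%, 88.8%, 73.7% and 66.3%. FPKM is relative to the library total, so a value above 100% does not mean that a transcript increased. The order held among genes of similar length, for example 103%, 77.8%, 56.6% and 44.3% between 2000 and 4000 exonic bases. Under 1000 bases it was not seen, with 104% for 1146 genes without a peak and 108% (98.5 to 117) for 143 genes with 1. There was 1 library at each time, so the spread between cultures is unknown.

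**Figure D5:**
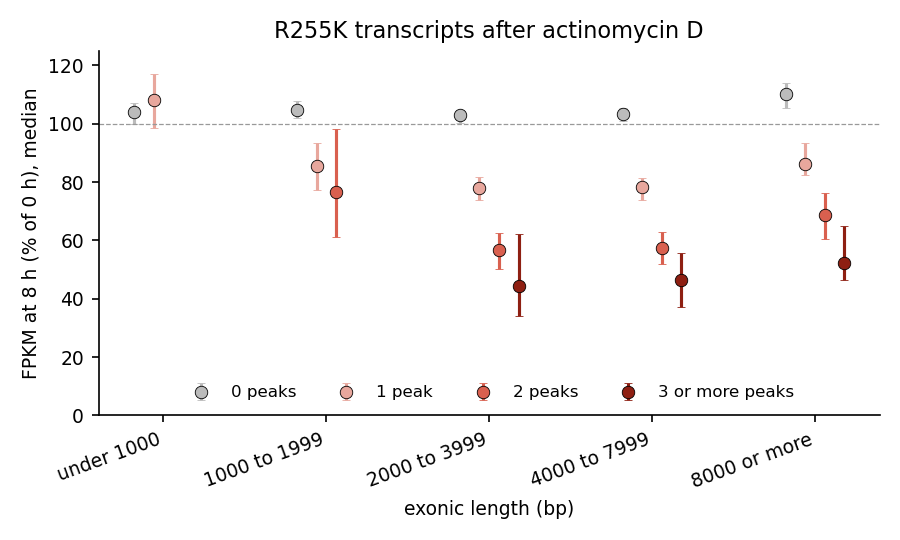
Median FPKM at 8 h of actinomycin D as a percent of that at 0 h in R255K cells (vertical axis) by exonic length in bases (horizontal axis) and number of peaks, with order-statistic 95% intervals over genes. From 2000 bases on, genes with 0, 1, 2 and 3 or more peaks are in that order, and under 1000 bases genes with 0 and 1 peak overlap at 104% and 108%.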

How the data were processed

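The study measured m6A by antibody pulldown and transcript levels by RNA sequencing in WT and METTL14 R255K cells. The authors removed ribosomal RNA reads with Bowtie2 2.2.6, aligned the rest to mm10 with HISAT2, kept uniquely placed reads of good quality with Picard 2.16.0 and SAMtools, and called peaks of pulldown over input with MACS2. The deposited peak lists give each peak's fold (a ratio of pulldown signal at the summit over the local background that MACS2 expects), −log10 of its q-value and summit offset, 1 list per genotype. How the 2 libraries of a kind were combined, and the counting tool and annotation, are not given in the sources used here, and the read depth behind the peaks is unknown. The deposited gene table holds read counts with exon coordinates, and the WT counts at 4 and 8 h were not used here.

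Overlapping exons of a gene were merged. A peak was on a gene if 1 base touched its exons, and a summit on exons of several genes went to the gene with the highest FPKM. FPKM was computed from counts, exonic length and the total per library, and 1 FPKM at 0 h made a gene expressed. Place was counted in exonic bases from the 5′ end. Shares have Wilson intervals, differences of shares Newcombe intervals, densities exact Poisson intervals and medians order-statistic intervals, all at 95%. No p-value was computed, because each genotype had 1 list and each time 1 library. Sequence was read from the GRCm38 assembly, and coding sequence and UTR from its gene annotation. Genes were named as the 12 with the most peaks, the 10 exonic peaks with the highest fold, the 5 widest, the 12 most expressed genes without a peak, the genes the study names and members of gene lists. Mief2, Eef1a1, Eef2, Hsp90ab1, Actb, Ubr4, Sptan1 and Mdn1 were chosen after their values were seen. A member of the 10 strongest peaks is not reported here. Members, lists and rules were chosen with earlier results of these data known. Placement was checked on simulated peaks. Alternatives were stricter peaks, other limits of expression, an overlap of 50% of a peak's bases and, chosen after seeing the data, a shortened WT list and a limit of 4-fold on both lists. Python 3.11.15, pandas 2.3.3, numpy 2.4.6, scipy 1.17.1, pysam 0.24.0 and matplotlib 3.10.9 were used.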

Additional observations from a re-analysis of the deposited data

How the results depend on the processing

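Of 66 alternative values, 36 stayed within the interval or limit of the reported value, 27 moved beyond it and 3 changed direction. With peaks of −log10 q of at least 5, the median width was 349 bp in place of 340, the last exon held 55.8% of summits, exons over 1000 bp 68.4%, and 41.4% of expressed genes had a peak. With peaks of at least 4-fold enrichment, the width was 363 bp, the last exon held 59.1%, exons over 1000 bp 74.5%, the median place was 48.6%, 22 genes had 5 or more peaks and 32.5% of expressed genes had a peak. That share was 47.5% at 5 FPKM or more, 40.7% at 0.5 FPKM or more, 38.9% at 1 TPM or more and 41.4% when 50% of a peak's bases had to lie on exons. Against the WT list, with the WT list cut to 9437 peaks by score, the difference was −8.08 points in the last exon, 8.77 in the first 10% of the gene, −6.40 in exons over 1000 bp, 22.6 for genes of 100 FPKM or more (8.24 as reported), 2.90 for peaks on an exon (15.0) and −10.1 for peaks over 1000 bp (−3.72). It changed direction to −3.16 for peak genes with exactly 1 peak (7.20) and to 1.93 for those with 3 or more (−4.19). With peaks of at least 4-fold in both lists it was −2.57 points in the last exon, 4.54 in the first 10%, 0.988 in exons over 1000 bp, where it had been −2.61, 4.88 for cytoplasmic ribosomal protein genes and 16.02 for peaks on an exon. With −log10 q of at least 5 in both lists it was 11.9 for peaks on an exon and −4.39 for peaks over 1000 bp. At 5 FPKM or more, the median left at 8 h for genes without a peak was 108%. The comparisons with the WT list and after actinomycin D, and all their alternatives, were added after seeing the data. The cause of these shifts was not tested beyond what each limit removes. No paired analysis was possible because each genotype had 1 peak list and no result comes from a test. The depth of the pulldown and input libraries is unknown, so a gene without a peak may be unmethylated or under the limit of detection.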

Other observations

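Peak genes were unevenly spread over the chromosomes. On X, 26.0% of 412 expressed genes had an R255K peak (22.0 to 30.4), the lowest share of any chromosome with expressed genes counted, and 40.3% had a WT peak, also the lowest. The highest R255K shares were 49.4% of 1029 genes on chromosome 11 (46.3 to 52.4) and 49.0% of 676 on chromosome 8. The median level of expressed genes was 5.66 FPKM on X and 13.1 on chromosome 11. It was 5.29 on chromosome 12 and 5.13 on chromosome 13, where 40.1% and 41.4% of expressed genes had an R255K peak. The part of level in these shares was not tested.

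By kind of gene, 47.3% of 10427 expressed protein-coding genes had an R255K peak, against 26.1% of 261 genes annotated as long noncoding or still to be verified (21.1 to 31.7) and 8.81% of 783 pseudogenes (7.02 to 11.004). WT shares were 61.6%, 39.5% and 9.83%. Of the nuclear long noncoding RNAs, Malat1 and Meg3 had 1 peak in each list, at 4.29- and 3.90-fold in R255K.

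Of the 100 R255K peaks with the highest fold enrichment, 74 lay on an exon (64.6 to 81.6), below the 93.4% of all R255K peaks, and of the 100 with the highest score, 95 did. On repeat-masked sequence, 5.59% of exonic R255K summits were found, and 49.9% of these (45.4 to 54.4) had a GGAC within 50 bases, against 67.3% of the others (66.2 to 68.3).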
